A study of Homo sapiens with 18 samples.

Results

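The 10 genes described here run the spindle checkpoint and the start of anaphase: BUB1, BUB1B, BUB3, MAD2L1, TTK, CDC20, ZWINT, UBE2C, FBXO5 and PTTG1. They were taken by symbol, with all 19 probes annotated to them, out of 11680 genes tested on Illumina HumanHT-12 v4 BeadChips. They were chosen by their measured differences between pioglitazone and vehicle, which were already known. These differences are therefore descriptions, given with standard errors and no p-value, and support nothing. The cells were of the established lung cancer line NCI-H2347, kept in RPMI medium with 5% serum. They received 50 µM pioglitazone, an antidiabetic drug and agonist of PPARγ, or the DMSO vehicle 24 h after plating, and RNA was taken 12, 24 or 48 h later. Each of the 6 groups (vehicle and pioglitazone at each time) had 3 arrays, 18 in all, from this 1 cell line. No source used here says that the 3 arrays of a group came from separate cultures, so the p-values reflect the spread among these arrays alone, and that spread may be technical.

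In a dividing cell the spindle checkpoint holds back anaphase until every chromosome is attached to the spindle. Kinases at unattached kinetochores, BUB1 and TTK (also called MPS1), recruit the proteins that form the mitotic checkpoint complex, in which MAD2L1 (MAD2), BUB1B (BUBR1) and BUB3 hold CDC20. CDC20 otherwise activates the anaphase-promoting complex or cyclosome (APC/C), a ubiquitin ligase that works with the ubiquitin-conjugating enzyme UBE2C to destroy securin (PTTG1) and cyclin B. Many of these genes are transcribed mainly in late S, G2 and M phase, so their RNA is commonly read as a mark of dividing cells. In RNA from whole cultures, fewer cells in mitosis and less RNA per cell cannot be told apart.

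Of 9 lung epithelial markers, 8 were detected on all 18 arrays, among them EPCAM, KRT19 and NKX2-1, and the surfactant gene SFTPB was detected on none. Of the leukocyte markers, PTPRC and CD3E were detected on no array, CD14 on 17 and CD68 on all 18. Of the endothelial markers, PECAM1, CDH5 and KDR were detected on none and VWF on 10. Of the fibroblast markers, COL1A1 and COL1A2 were detected on all 18, DCN on 2, COL3A1 on 1 and LUM on none. Each array detected 17040 to 18880 of 47323 probes. The median signal of undetected probes was 102 to 113 on 11 arrays and 138 to 153 on the other 7, namely the 6 arrays of 24 h plus the third pioglitazone array of 48 h. The differences between treatments at 48 h are therefore given with and without that array for the 10 genes and for the counts and medians of the related lists. In vehicle, and between 12 and 24 h with pioglitazone, a comparison of 24 h with another time also compares these classes of background, which cannot be told apart from time. Between 24 and 48 h with pioglitazone the same holds for the arrays of 48 h other than the third.

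The promoters of some of these genes are shown as a description, and no link between promoter letters and levels was tested. RefSeq promoter windows of GRCh38.p14, 250 bases before to 50 bases after a start, were found for 7 of the 10 genes (10 windows, since FBXO5, PTTG1 and ZWINT have more than 1 start and the windows of PTTG1 and of ZWINT overlap); BUB3, TTK and UBE2C had none. A pair of short motifs known from cell-cycle promoters were searched on both strands. The first, called CHR (cell cycle genes homology region), was spelled TTTGAA or TTCGAA, and the second, CCAAT, is bound by NF-Y. The CHR letters were in 7 of the 10 windows, at 6 of the 7 genes, against 16.4% of all 35116 windows. CCAAT was in 8 of the 10, also at 6 of the 7 genes, against 34.6% of all windows. Both were in 6 of the 10 windows, against 6.38% of all. These were windows of BUB1, CDC20, FBXO5 and MAD2L1 and the overlapping windows of ZWINT, which hold the same matches. The genes were not drawn at random, so these shares are descriptions and were not tested. The 250 bases upstream of 4 starts are printed 5′ to 3′ on the gene's strand, with matches to either motif in capitals. CDC20 (chr1:43358731-43358980, + strand) and BUB1 (chr2:110678064-110678313, - strand) had the lowest values at 48 h among the genes with a window, FBXO5 (chr6:152983042-152983291, - strand) had the most CCAAT matches, and BUB1B (chr15:40160819-40161068, + strand) had none.
CDC20: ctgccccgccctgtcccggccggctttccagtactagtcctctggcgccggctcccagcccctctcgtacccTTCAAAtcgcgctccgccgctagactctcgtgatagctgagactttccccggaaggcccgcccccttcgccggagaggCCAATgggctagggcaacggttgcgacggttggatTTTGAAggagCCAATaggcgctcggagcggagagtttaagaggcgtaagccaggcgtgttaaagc
BUB1: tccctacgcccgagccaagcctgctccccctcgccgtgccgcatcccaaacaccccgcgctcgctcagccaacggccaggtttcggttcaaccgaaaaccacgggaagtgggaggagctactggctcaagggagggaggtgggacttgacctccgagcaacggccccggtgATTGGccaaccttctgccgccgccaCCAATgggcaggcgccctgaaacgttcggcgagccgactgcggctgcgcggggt
FBXO5: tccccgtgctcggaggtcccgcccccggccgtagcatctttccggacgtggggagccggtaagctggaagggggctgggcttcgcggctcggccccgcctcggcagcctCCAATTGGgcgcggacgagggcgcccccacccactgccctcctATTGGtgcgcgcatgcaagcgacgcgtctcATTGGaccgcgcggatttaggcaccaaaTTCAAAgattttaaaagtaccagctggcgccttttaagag
BUB1B: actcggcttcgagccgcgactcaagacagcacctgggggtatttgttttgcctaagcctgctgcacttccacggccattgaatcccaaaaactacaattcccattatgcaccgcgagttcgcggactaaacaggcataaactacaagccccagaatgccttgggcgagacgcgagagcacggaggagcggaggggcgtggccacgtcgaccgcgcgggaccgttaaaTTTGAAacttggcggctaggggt
CDC20 holds the CHR letters at position -65 from its start, followed by a CCAAT at -55, and an inverted match at -178. In BUB1 the only CHR letters, TTCGAA, begin at base 2 after the start and so lie outside the printed stretch. In FBXO5 a CCAAT and its inverted form ATTGG overlap, and the other FBXO5 window holds neither motif. A match is a description of letters, not of a bound site.

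By the median of the 10 genes, the pioglitazone and vehicle cultures differed least at 12 h, more at 24 h and most at 48 h. BUB1B did not follow this course, with log2 differences of -0.39, -0.23 and -0.38. PTTG1 differed less at 24 h (-0.08) than at 12 h (-0.14). On the log2 scale the median difference of the 10 genes was -0.31 at 12 h, -0.51 at 24 h and -1.71 at 48 h, where the medians of all 11680 genes were 0.00, -0.02 and 0.01. All 10 values were negative at every time. The largest at 48 h were those of BUB1, CDC20 and UBE2C, and the smallest were those of BUB1B and BUB3. The plot of levels on each array shows these courses gene by gene.

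**Figure D1:**
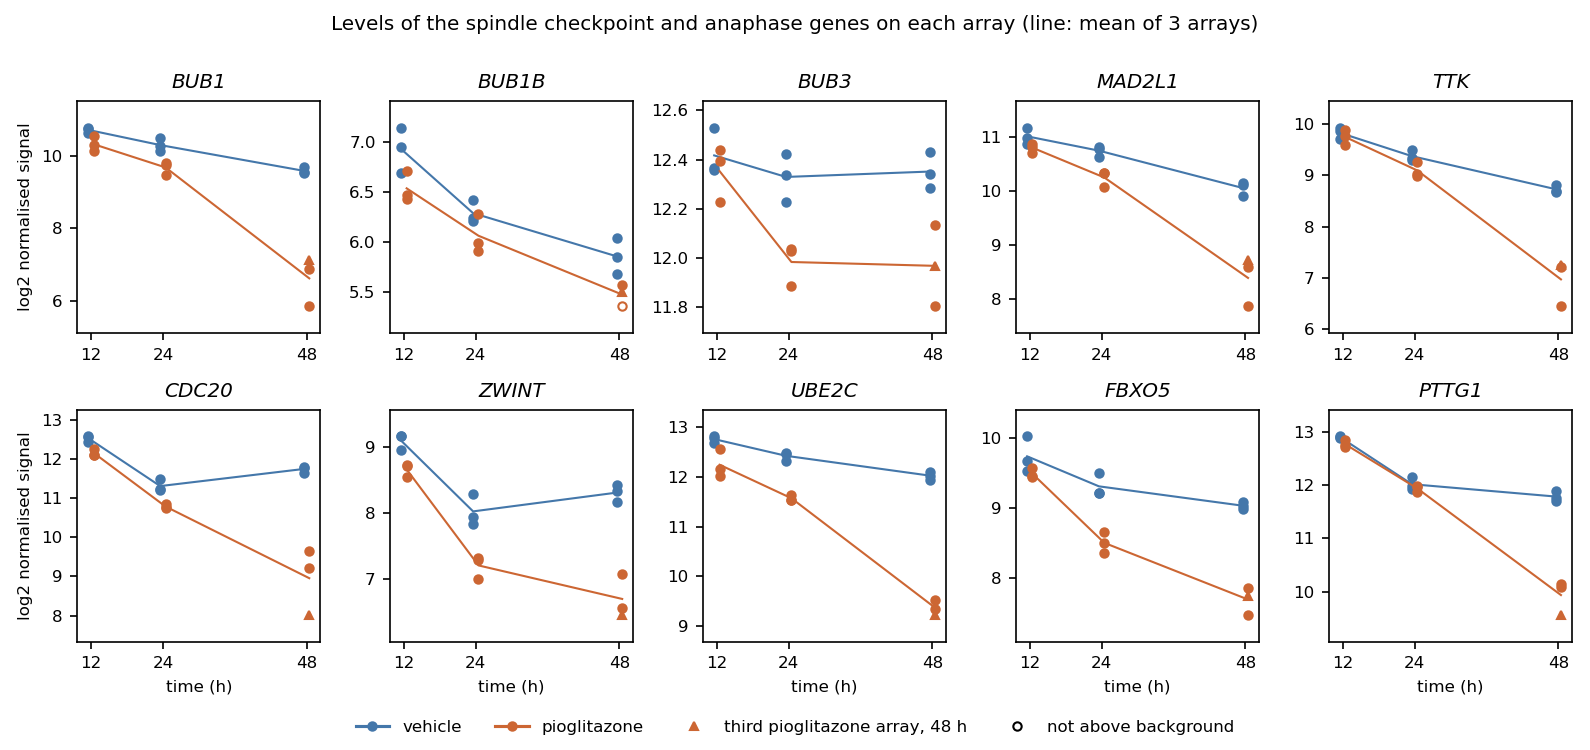
Log2 normalised signal of the 10 genes (y axis, scaled for each gene) against hours of treatment (x axis), with 1 point for each of the 18 arrays and lines through the means of 3 arrays. The pioglitazone points at 48 h lie below the vehicle points for all 10 genes. The vehicle lines also end lower at 48 h than at 12 h, least for BUB3 (-0.07). Those of CDC20, ZWINT and BUB3 rise between 24 and 48 h.

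BUB1, a checkpoint kinase that docks other checkpoint proteins at the kinetochore, had vehicle levels of 10.77, 10.64 and 10.72 at 12 h, 10.49, 10.12 and 10.26 at 24 h, and 9.52, 9.68 and 9.54 at 48 h (log2 signal, replicates 1 to 3). With pioglitazone the levels were 10.30, 10.53 and 10.12 at 12 h, 9.80, 9.47 and 9.75 at 24 h, and 6.88, 5.85 and 7.12 at 48 h. The treatments did not overlap at any time, and the second pioglitazone array at 48 h was the lowest by a full log2 unit. The difference was -0.39 at 12 h, -0.62 at 24 h and -2.96 at 48 h (SE 0.23 at each time), the last a 7.79-fold lower level, and -3.21 without the third pioglitazone array. By rank, BUB1 was number 1 from the bottom among the 11680 genes at 48 h, in a contrast that helped to choose the genes. Its raw pioglitazone signals at 48 h were 158, 121 and 402. The median signals of undetected probes on these arrays were 104, 102 and 153.

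TTK, the kinase that starts checkpoint signalling, had vehicle levels of 8.82, 8.67 and 8.70 at 48 h against 7.22, 6.45 and 7.25 with pioglitazone. At 12 h its groups overlapped, at 9.70 to 9.93 with vehicle and 9.59 to 9.89 with pioglitazone. Its difference was -0.08 at 12 h, -0.28 at 24 h and -1.76 at 48 h (SE 0.17), so that nearly all of it lay at the last time. MAD2L1, the protein that locks CDC20 away, stood at 9.91, 10.11 and 10.16 with vehicle and 8.59, 7.87 and 8.73 with pioglitazone at 48 h, a difference of -1.66 (SE 0.17). At 12 and 24 h its differences were -0.21 and -0.50. The second pioglitazone array at 48 h was again the lowest for both genes, as it was for 6 of the 10.

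BUB1B, which with BUB3 and MAD2L1 inhibits CDC20, had a single, dim probe. Its levels at 48 h were 5.68, 6.04 and 5.84 with vehicle and 5.56, 5.35 and 5.49 with pioglitazone, of which the 5.35 was not above background. The groups did not overlap but lay close, with a difference of -0.38 (SE 0.14). At 12 h the difference was -0.39 and at 24 h -0.23, with overlapping groups at both times. With vehicle at 12 h the levels were 6.95, 6.69 and 7.14. A probe so near background at 48 h could show little of any further drop with pioglitazone.

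BUB3, a WD-repeat protein that carries BUB1 and BUB1B to kinetochores and also has roles outside mitosis, was the flattest of the 10. Vehicle levels were 12.36, 12.36 and 12.53 at 12 h, 12.34, 12.23 and 12.42 at 24 h and 12.34, 12.28 and 12.43 at 48 h. With pioglitazone they were 12.39, 12.44 and 12.23, then 12.03, 11.89 and 12.04, then 12.13, 11.80 and 11.97. The vehicle arrays of all 3 times overlapped each other, and the pioglitazone arrays at 24 and 48 h lay below all of them. The difference was -0.06 at 12 h, -0.35 at 24 h and -0.38 at 48 h (SE 0.11).

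ZWINT, which links the checkpoint complex that carries ZW10 to the kinetochore, had groups that did not overlap at any time. Its levels were 9.15, 8.96 and 9.15 with vehicle and 8.54, 8.73 and 8.70 with pioglitazone at 12 h. At 48 h they were 8.16, 8.42 and 8.34 against 7.08, 6.57 and 6.47. The difference was -0.43 at 12 h, -0.81 at 24 h and -1.60 at 48 h (SE 0.16).

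CDC20, the activator that the checkpoint restrains, had the widest spread between the pioglitazone arrays at 48 h. Vehicle levels were 12.43, 12.57 and 12.56 at 12 h, 11.48, 11.23 and 11.21 at 24 h and 11.80, 11.64 and 11.78 at 48 h. With pioglitazone they were 12.11, 12.09 and 12.25, then 10.77, 10.84 and 10.74, then 9.64, 9.21 and 8.02. The 8.02 came from the third pioglitazone array, whose background was in the higher class. The difference was -0.37, -0.52 and -2.78 at 12, 24 and 48 h (SE 0.25), and the last was -2.32 without that array. No other of the 10 genes moved as far when it was left out.

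UBE2C, the ubiquitin-conjugating enzyme that works with the APC/C, was called lower at each of the 3 times, as a description. With vehicle it stood at 12.78, 12.81 and 12.67 at 12 h, 12.32, 12.47 and 12.46 at 24 h and 12.10, 11.94 and 12.02 at 48 h. With pioglitazone it stood at 12.15, 12.00 and 12.56, then 11.54, 11.63 and 11.53, then 9.53, 9.35 and 9.23. No group of 1 treatment overlapped the other at the same time. The difference was -0.51, -0.85 and -2.65 (SE 0.13), the last a 6.28-fold lower level.

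FBXO5 (EMI1), which inhibits the APC/C before mitosis, was at 8.99, 9.02 and 9.08 with vehicle and 7.85, 7.47 and 7.74 with pioglitazone at 48 h. Its difference, -0.25 at 12 h, was -0.81 at 24 h and -1.34 at 48 h (SE 0.14). PTTG1 (securin), the separase inhibitor that the APC/C destroys at anaphase, differed mainly at the last time. Its groups overlapped at 24 h, at 11.92 to 12.16 with vehicle and 11.87 to 11.98 with pioglitazone, and its difference there was -0.08 (SE 0.13). At 48 h it was at 11.90, 11.70 and 11.76 with vehicle and 10.09, 10.15 and 9.57 with pioglitazone, a difference of -1.85. FBXO5 thus differed by a large part of its final amount at 24 h and PTTG1 by almost none of it, a contrast of descriptions that was not tested. A probe annotated to PTTG3P, a near-identical copy of PTTG1, was detected on all 18 arrays and differed by 0.02, 0.06 and -2.04 at the 3 times, while the probe of PTTG2, another copy, was detected on none. Signal shared between PTTG1 and PTTG3P was not tested.

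**Figure D2:**
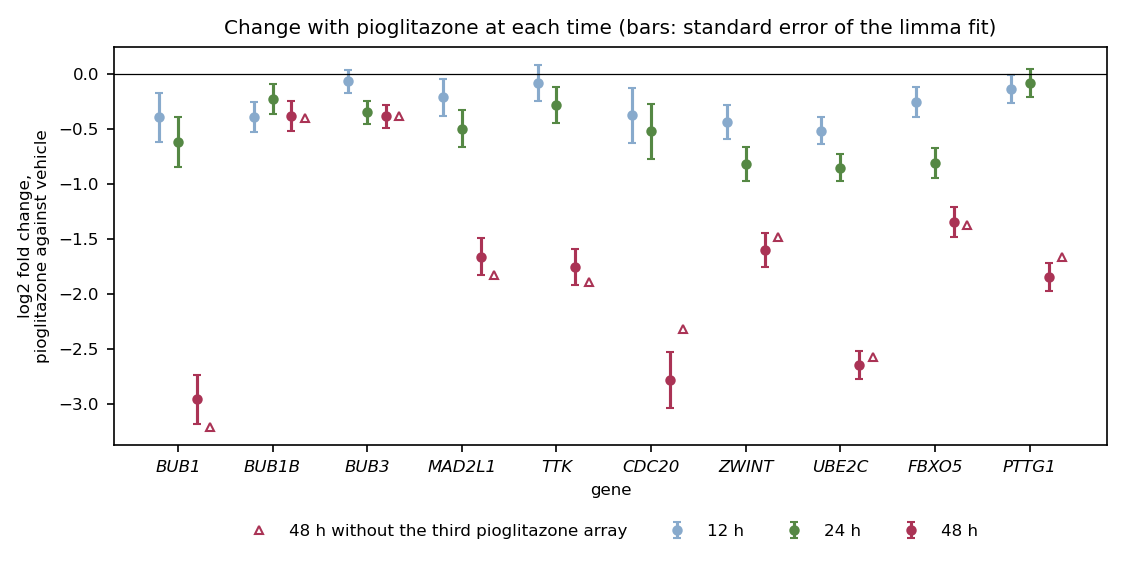
Log2 fold change of pioglitazone against vehicle (y axis) for each gene (x axis) at 12, 24 and 48 h, with standard errors from the limma fit of 18 arrays; open triangles leave out the third pioglitazone array at 48 h. UBE2C reaches -2.65 and BUB1 -2.96 at 48 h, while BUB1B and BUB3 both stay at -0.38.

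By the limma fit over all genes, with a Benjamini-Hochberg adjusted p under 0.05 as the threshold, 1 of the 10 genes was called lower at 12 h, UBE2C, where 4.48% of all genes were called lower. At 24 h 5 were called lower, namely BUB3, MAD2L1, ZWINT, UBE2C and FBXO5, beside 12.8% of all genes. At 48 h all 10 were called lower, beside 15.4% of all genes, and 0 were called higher at any time, where 4.32%, 10.5% and 14.3% of all genes were called higher. The treatments did not overlap, with pioglitazone lower, for 6 genes at 12 h, 8 at 24 h and 10 at 48 h, where 17.4%, 25.1% and 19.1% of all genes had pioglitazone wholly below vehicle. Since these contrasts chose the genes, nothing is read from these counts. The call of UBE2C at 12 h was lost without vehicle replicate 1 or 2 or pioglitazone replicate 1 or 2, and BUB1B was called instead without vehicle replicate 2. At 24 h 3 genes were left without vehicle replicate 1 or 3 or pioglitazone replicate 2. At 48 h 9 were left without the third pioglitazone array, with a median of -1.75 and 15.6% of all genes called lower; BUB1B was the gene lost. Without that array the differences at 48 h were -1.83 for MAD2L1, -1.90 for TTK, -1.48 for ZWINT, -2.58 for UBE2C, -1.37 for FBXO5, -1.66 for PTTG1, -0.39 for BUB1B and -0.38 for BUB3, so that each kept its sign.

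The genes also fell with time in the vehicle cultures, which received DMSO alone. This contrast was not the one that chose the genes, but it uses the same vehicle arrays. The contrasts over time in vehicle were also chosen with earlier results of these data known, so their p-values are descriptions too. From 12 to 48 h in vehicle, both in the lower class of background, 9 of the 10 genes fell and BUB3 did not pass, beside 13.6% of all genes called lower. The median change was -0.87 on the log2 scale. BUB1 fell by 1.13 (SE 0.23, n = 3 per group, limma adjusted p = 0.00156), PTTG1 fell by 1.12 (SE 0.13, limma adjusted p = 1.22e-05) and TTK fell by 1.10 (SE 0.17, limma adjusted p = 0.000151). The change of BUB1B, -1.07 (SE 0.14, limma adjusted p = 3.41e-05), was of the same size. Its probe was near background at 48 h, so this change cannot be weighed against its difference between treatments. The remaining falls ran from -0.71 in FBXO5 to -0.95 in MAD2L1. A second kept probe of MAD2L1 did not follow, with 6.57, 6.08 and 6.14 at 12 h and 6.38, 6.06 and 6.22 at 48 h. That of FBXO5 was not above background at 12 h but was at 48 h, with 5.41, 5.38 and 5.56. The second kept probes of PTTG1, ZWINT and UBE2C were lower at 48 h than at 12 h. CDC20 changed by -0.78 (SE 0.25, limma adjusted p = 0.0304), a call lost on leaving out any 1 of the 6 arrays. BUB3 had a change of -0.07 (SE 0.11, limma adjusted p = 0.687).

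In the pioglitazone cultures the same interval gave larger values for 9 genes. These values end at the pioglitazone arrays of 48 h that helped to choose the genes, so they are descriptions with no p-value, and nothing is read from their counts. From 12 to 48 h the median of the 10 genes was -2.59, and all 10 were called lower, with or without the third pioglitazone array, beside 19.2% of all genes. The values were -3.70 for BUB1 (SE 0.23), -3.19 for CDC20 (SE 0.25) and -2.87 for UBE2C (SE 0.13). For BUB1B, whose probe was near background at 48 h, the value was -1.07 (SE 0.14), as in vehicle. For BUB3 it was -0.39 (SE 0.11). The difference between the courses of the 2 treatments was not tested, since it is built from the same contrasts.

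**Figure D3:**
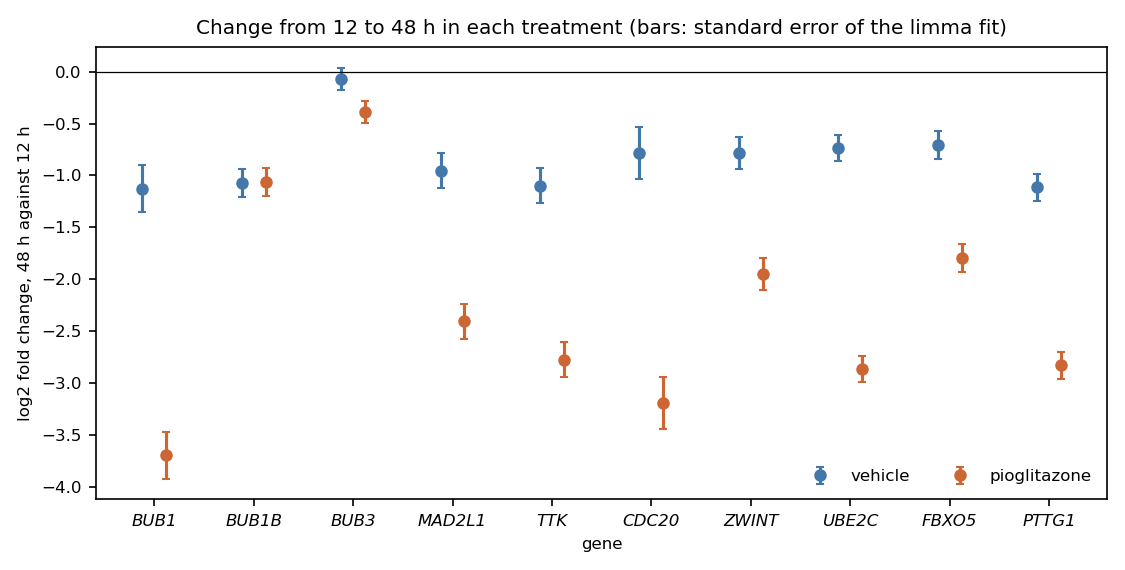
Log2 fold change from 12 to 48 h (y axis) for each gene (x axis) in vehicle and in pioglitazone, with standard errors from the limma fit (3 arrays in each group). The vehicle values of 9 genes lie between -0.71 and -1.13. BUB1B, whose probe was near background at 48 h, has -1.07 in both treatments.

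The steps through 24 h split the genes further, with the class of background confounded. Between 12 and 24 h in vehicle 7 of the 10 were called lower, beside 16.5% of all genes, led by CDC20 (-1.22, SE 0.25, limma adjusted p = 0.00162), ZWINT (-1.06) and PTTG1 (-0.88), but with median scaling of the arrays 1 was called and the median turned from -0.44 to 0.09. That scaling put the median of all genes at 0.54 for this comparison. Without vehicle replicate 3 at 12 h, or replicate 2 or 3 at 24 h, 4 were called. Between 24 and 48 h in vehicle 5 were called lower, beside 22.0% of all genes, namely BUB1, BUB1B, MAD2L1, TTK and UBE2C. CDC20 (0.44, SE 0.25, limma adjusted p = 0.182) and ZWINT (0.28) had values above 0 there that did not pass, and with median scaling, where the median of all genes was -0.77, ZWINT turned to -0.63. Leaving out vehicle replicate 1 or 3 at 48 h, or replicate 1 at 24 h, left 2 or 3 of these calls.

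With pioglitazone all 10 were called lower between 12 and 24 h, beside 20.3% of all genes, with ZWINT at -1.45 and CDC20 at -1.37 the lowest. Median scaling left 3 of them. Between 24 and 48 h 9 were called lower, beside 18.5% of all genes, with BUB1 at -3.06, UBE2C at -2.20, TTK at -2.12 and PTTG1 at -2.002. MAD2L1 had -1.85, CDC20 -1.83, FBXO5 -0.81, BUB1B -0.59 and ZWINT -0.51 in this step, and BUB3, at -0.02 (SE 0.11), was not called. The third pioglitazone array of 48 h shares the higher class of background with the 24 h arrays, and the other pioglitazone arrays of 48 h are in the lower class. This step thus also compares the classes in part, and their share in it was not tested. The values of this step too end at the arrays that helped to choose the genes.

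Ordered by level, vehicle at 12 h had the highest mean of the 6 groups for all 10 genes and pioglitazone at 48 h the lowest. The pioglitazone arrays at 48 h lay clear of the next group for 8 genes and overlapped pioglitazone at 24 h for BUB3 and ZWINT. In between, neighbours often overlapped. For BUB1 and MAD2L1, pioglitazone at 12 h overlapped vehicle at 24 h, and pioglitazone at 24 h overlapped vehicle at 48 h. CDC20 was the gene whose 6 groups were all separate from their neighbours in the order.

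Across the 18 arrays the 10 genes varied together, as a description that shares the same arrays and the same 2 factors. Pearson r between 2 of the genes ran from 0.67 (BUB3 with PTTG1) to 0.99 (BUB1 with MAD2L1). Against the mean of the other genes, r was lowest for BUB3 (0.77), BUB1B (0.87) and ZWINT (0.89). Leaving out the 6 arrays at 48 h, it was lowest for UBE2C (0.80) and highest for ZWINT (0.99). The 5 other genes whose levels followed the mean of the 10 most closely were CKAP2L (0.993), NUSAP1 (0.993), PBK (0.991), SGO1 (0.989) and KIF23 (0.988).

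Of the 19 probes annotated to the 10 genes, 17 passed the filter of detection on at least 3 arrays, and 1 kept probe with the highest mean signal stood for each gene. The second probe of PTTG1 gave -1.55 at 48 h (SE 0.13), or -1.51 without the third pioglitazone array. That of ZWINT, detected on 2 of the 3 pioglitazone arrays, gave -1.41 (SE 0.20), or -1.44 without the third. The second probes of UBE2C, MAD2L1 and FBXO5 were not above background on any pioglitazone array at 48 h, which makes these levels at least 3.51-fold, 1.89-fold and 1.11-fold lower. For these bounds, each dim array was given the lowest signal that any detected probe had on it, or the probe's own signal where that was higher. The FBXO5 probe was above background on the 3 vehicle arrays at 48 h alone.

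The 3 kept probes of BUB3, each detected on all 18 arrays, gave unlike values. The brightest gave -0.38 at 48 h, a second gave -0.66 (SE 0.17; -0.83 without the third pioglitazone array) and another gave 0.05 (SE 0.19), or -0.18 without the third pioglitazone array, on which that probe read 9.59 beside 8.99 and 8.79 on the other pioglitazone arrays. The last BUB3 probe was detected on no array and the last ZWINT probe on 1. When a fit was run over all 20032 kept probes, BUB1B was no longer called at 48 h. The value of BUB3 averaged over its kept probes was not called at 48 h either.

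**Figure D4:**
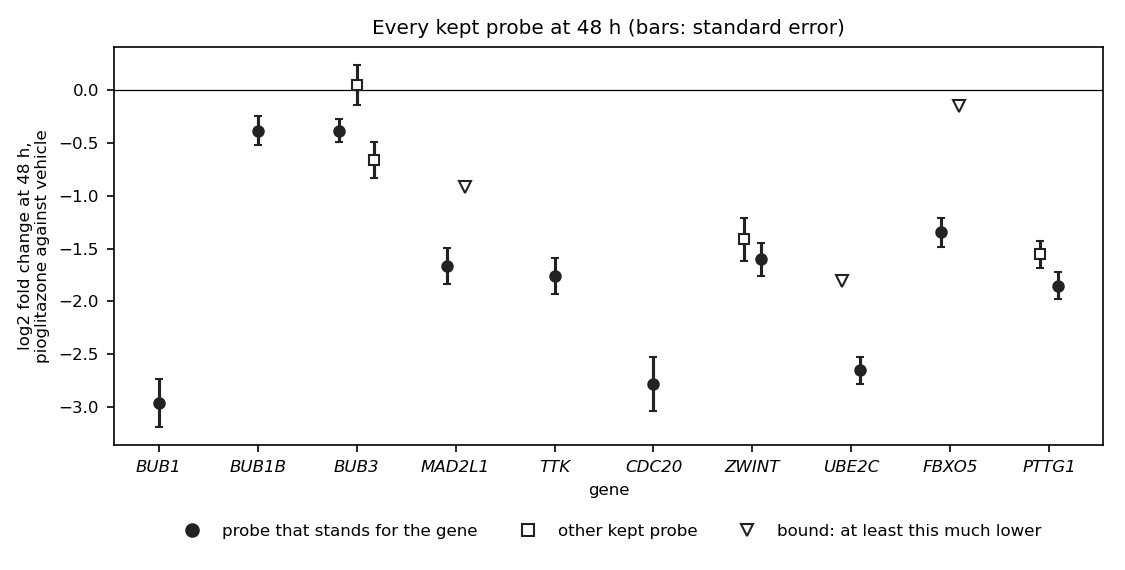
Log2 fold change of pioglitazone against vehicle at 48 h (y axis) for every kept probe of each gene (x axis), with standard errors; open triangles are bounds for probes above background on no pioglitazone array, whose true change is at least as low. The kept probes of BUB3 range from -0.66 to 0.05, while the second probes of ZWINT and PTTG1 lie at -1.41 and -1.55.

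The rest of the pathway was read from 4 lists of 80 genes in all, of which 74 were tested. At 12 h 7 of them were called lower, at 24 h 31 and at 48 h 44, beside 4.48%, 12.8% and 15.4% of all genes. At 48 h 2 were called higher, beside 14.3% of all genes, and 0 at the earlier times. Without any 1 of the arrays compared, 1 to 4 genes were called lower at 12 h and 16 to 28 at 24 h, the fewest at 24 h without vehicle replicate 1 and 18 without pioglitazone replicate 2 or 3. At 48 h the count was 43 to 46. With median scaling it was 0, 6 and 29.

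Among 23 other genes of checkpoint and kinetochore signalling, 17 were lower at 48 h and 0 higher, beside 15.4% and 14.3% of all genes, and the median was -1.35 (-0.64 with no background correction). Without the third pioglitazone array the counts were the same and the median was -1.45. The lowest were BIRC5 (survivin) at -2.84 and AURKB at -2.54, both of the chromosomal passenger complex, and NDC80, which binds microtubules. NDC80 was not above background on any pioglitazone array at 48 h and was at least 4.54-fold lower. KNL1 and PLK1 also had only a bound there, and with these 3 genes at their bounds the median was -1.32. The 6 that did not pass were MAD1L1 (-0.31), MAD2L1BP (0.14), TPR (0.17) and the MIS12 complex genes MIS12 (0.12), NSL1 (-0.03) and PMF1 (0.06). DSN1, the other gene of that complex and named after its value was seen, was lower (-0.93). The genes of the APC/C itself had smaller values: of 13 subunits and the activator FZR1, 4 were lower and 0 higher at 48 h, beside 15.4% and 14.3% of all genes, with a median of -0.20 that turned to 0.06 with median scaling, where the median of all genes was 0.26. ANAPC15 (-0.55), CDC26 (-0.52) and ANAPC1 (-0.44) were the lowest. Without the third pioglitazone array 5 were lower and the median was -0.16. The E2 enzymes of the list, UBE2S and UBE2D1, were not tested.

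Of 18 genes of separase, cohesin and their protectors, 4 were lower and 2 higher, shares near the 15.4% and 14.3% of all genes, with a median of -0.04 (0.24 with median scaling). Without the third pioglitazone array 5 were lower and 2 higher, and the median was -0.18. CDCA5 (sororin, -2.04), SGO1 (shugoshin, -1.999) and SGO2 (-1.58), which guard cohesin, were the lowest. Separase itself, ESPL1, was the fourth called lower (-1.31), while the cohesin ring genes RAD21 (-0.12) and SMC3 (0.32) did not pass. These 3 genes are named after their values were seen. The phosphatase subunits PPP2R1A (0.53) and PPP2R5A (0.51) were higher, though neither passed with median scaling, at 0.85 and 0.81. All 20 genes of the list of APC/C substrates were called lower at 48 h, with and without that array, beside 15.4% of all genes. Their medians were -2.04 and -2.10, and NEK2 (-2.87), DLGAP5 (-2.81) and HMMR (-2.69) had the lowest values. CDC6 and PLK1 were not above background on any pioglitazone array at 48 h, and with both at their bounds (no fold for CDC6) the median was again -2.04. CDC6 was above background on only 1 vehicle array at 48 h, so no drop was measured for it. PLK1 stands in 2 of the lists. Several of these genes were known to be lower in these data when the lists were drawn up.

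**Figure D5:**
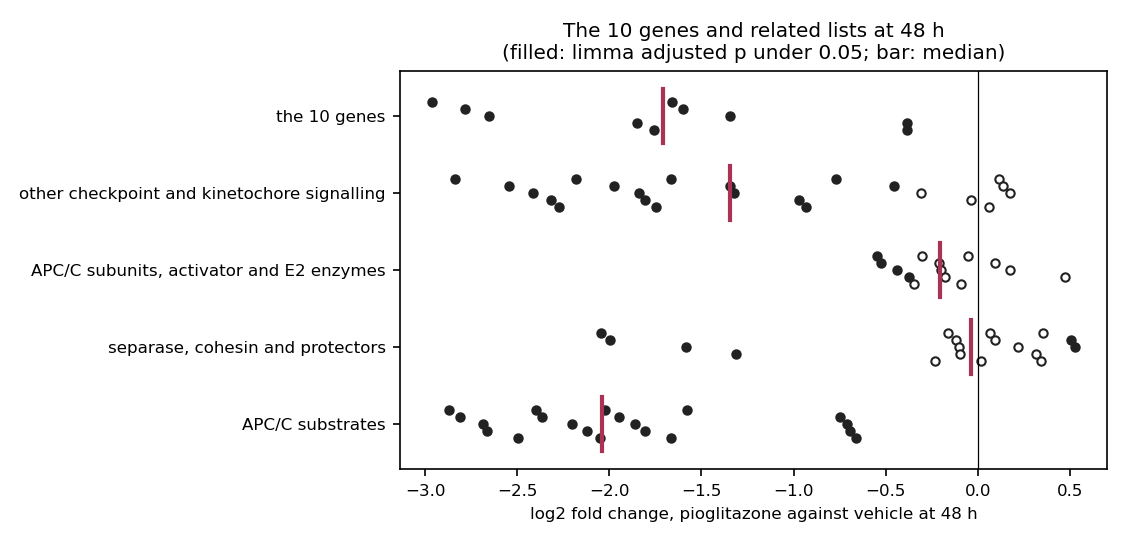
Log2 fold change of pioglitazone against vehicle at 48 h (x axis) for the 10 genes and the tested genes of 4 related lists (rows), 1 point per gene with heights offset only to separate points, and genes that have only a bound drawn at their measured difference; bars mark medians. The 10 genes and the APC/C substrates have medians of -1.71 and -2.04, while the APC/C subunits and the cohesin genes centre at -0.20 and -0.04.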

How the data were processed

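RNA of 18 samples was hybridised to 1-colour Illumina HumanHT-12 v4 BeadChips. The authors deposited an intensity for each of 47323 probes, exported from GenomeStudio per the submitters' processing notes, with a detection p-value that the authors deposited beside it in steps of 1 in 770. A second deposited table holds processed intensities of the same arrays; its method is not given in the sources used here.

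Intensities were corrected and quantile-normalised with neqc (offset 16) in limma 3.58.1 (R 4.3.3) and taken to log2. Probes with a detection p-value under 0.01 on at least 3 arrays were kept (20032; 15678 with 1 symbol, 4354 with none). Symbols came from the platform annotation, updated through RefSeq gene identifiers. The kept probe of highest mean signal stood for each of 11680 genes. 1 limma fit of 6 group means (12 residual degrees of freedom, empirical Bayes) gave all contrasts, with Benjamini-Hochberg adjustment over all genes. Over all genes the standard error of a fold change had a median of 0.15 (log2), and precision is limited by the number of arrays.

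The members, lists and tests were chosen with earlier results of these data known. The named genes were all 10 members, the 3 lowest and 2 highest called genes of each list at 48 h, and the 5 genes most like the members' mean. The fit was tested on simulated data. Replicate numbers are shared between groups, but the deviations of same-numbered arrays correlated at -0.29 to 0.21, above 0.1 in 2 of 27 pairs, so the numbers were not taken to pair arrays. The alternatives were an offset of 50, no background correction, median scaling, other filters, the authors' processed values, the mean of kept probes, array weights, a fit of the compared groups alone, a replicate block and leaving out each array.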

Additional observations from a re-analysis of the deposited data

How the results depend on the processing

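Median scaling moved the results most, and it put the median of all genes at 0.11, -0.20 and 0.26 for pioglitazone against vehicle at 12, 24 and 48 h, at 0.54, -0.20 and -0.77 for vehicle 24 against 12 h, 48 against 12 h and 48 against 24 h, and at 0.22, -0.05 and -0.29 for the same steps with pioglitazone. For pioglitazone against vehicle it called 0, 2 and 8 of the 10 genes lower, with medians of -0.18, -0.68 and -1.41, and 0, 6 and 29 genes of the 4 lists. For vehicle it called 1, 7 and 9 genes lower in those steps, with medians of 0.089, -1.09 and -1.02, and it turned TTK (0.13), UBE2C (0.050) and FBXO5 (0.16) from 12 to 24 h and BUB3 (-0.59) and ZWINT (-0.63) from 24 to 48 h. For pioglitazone from 12 to 24 h it called 3, with a median of -0.46, and the median from 24 to 48 h was -2.18.

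At 12 h 1 gene was called lower by the reported fit, against 2 with an offset of 50, 2 with no background correction, 0 with the mean of kept probes, 4 with array weights and 2 with only the groups compared. The 7 calls in the 4 lists became 12 with no background correction, 4 with the authors' processed values and 15 with array weights. At 24 h array weights called 9 of the 10 genes. At 48 h the median was -1.54 with an offset of 50, -1.27 with no background correction and -1.83 with the authors' processed values. From 24 to 48 h in vehicle array weights called 2 genes higher and a fit of the compared groups alone 1. With pioglitazone the median from 12 to 48 h was -2.38 with an offset of 50, -2.05 with no background correction and -2.29 with the mean of kept probes. From 24 to 48 h it was -1.51 with no background correction, -1.62 with the mean of kept probes and -1.58 with array weights. The array weights did not reach their convergence tolerance. The call of BUB1B at 48 h was also lost with an offset of 50, no background correction, no detection filter, array weights or only the groups compared, and that of BUB3 with only the groups compared. The cause of these shifts was not tested.

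Leaving out 1 array at a time, the genes called lower with pioglitazone numbered 0 to 1 at 12 h, 3 to 4 at 24 h and, at 48 h, 9 to 10. Their medians were -0.35 to -0.21, -0.56 to -0.46 and -1.84 to -1.52, and the 4 lists gave 1 to 4, 16 to 28 and 43 to 46 genes. For vehicle 4 to 6 were called from 12 to 24 h, 8 in each case from 12 to 48 h and 2 to 4 from 24 to 48 h, with medians of -0.53 to -0.40, -0.93 to -0.82 and -0.35 to -0.28. For pioglitazone 8 to 10 were called from 12 to 24 h and 8 to 9 from 24 to 48 h, with medians of -0.73 to -0.65, -2.70 to -2.33 from 12 to 48 h and -2.02 to -1.59.

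With the replicate number as a block, 1, 5 and 9 of the 10 genes were called lower with pioglitazone at 12, 24 and 48 h. The counts were 6, 9 and 5 over the vehicle steps and 10, 10 and 9 over the pioglitazone steps. The replicate numbers were not taken to pair the arrays. Over all genes, the counts called in either direction with pioglitazone, 1028, 2725 and 3469, were 23, 448 and 554 with median scaling, and 2527 and 5780 at 12 and 24 h with array weights; leaving out 1 array gave 588 to 775 at 12 h; a fit of the compared groups alone gave 1521 at 48 h. Median scaling took the vehicle counts for 48 against 12 h and 48 against 24 h from 2983 to 373 and from 4445 to 7312, and the pioglitazone counts from 4976, 4433 and 3890 to 1334, 1051 and 1107. For pioglitazone 48 against 24 h array weights gave 6417, and the compared groups alone gave 1816, with 2666 for 48 against 12 h. The dim probes of BUB1B, and the second probes of UBE2C, MAD2L1 and FBXO5, limit those values to the signal over background.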
